A study of Mus musculus with 8 samples.

Results

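The genes described are 10 mouse genes of the AP-1 transcription factor and of the immediate early response, *Fos*, *Fosb*, *Fosl2*, *Jun*, *Junb*, *Jund*, *Egr1*, *Atf3*, *Ier2* and *Dusp1*. They were taken by name, with earlier results of these data known, and each was matched by symbol to 1 of the 55487 gene identifiers in the count table. All 10 were among the 20610 genes with at least 10 reads summed over the samples. Bulk RNA-seq was available for 8 samples of LT-HSCs, the hematopoietic stem cells that can rebuild blood over the long term, each of 500 cells sorted from the liver of an embryo at E14.5. The sort gate was lineage negative, SCA1+, cKIT+, CD48- and CD150+, and the study's methods describe crushing the liver through a strainer and depleting lineage-positive cells before sorting. Genotype referred to *Nfkbia*, which encodes IκBα, in a targeted knockout line (Nfkbia tm1Bal) that lacks the gene in every cell and from the start of development. WT1, WT2 and WT3 were wild type, HET1, HET2 and HET3 carried 1 disrupted allele, and KO1 and KO2 carried no intact allele. None of the groups was treated. The study's matings also used a Gfi1:tomato reporter line, and which embryos carried it is not given. WT1, WT2 and HET1 were male and are recorded as total RNA, whereas WT3, HET2, HET3, KO1 and KO2 were female and are recorded as polyA RNA. Sex and RNA label therefore cannot be told apart, and both KO samples were female. The samples are described as independent biological replicates, and the study states that genotypes came from shared litters where possible, without giving the litter of each sample. The methods also state that a further KO sample was discarded for its sequencing quality.

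AP-1 is a dimer of basic leucine zipper proteins of the FOS, JUN and ATF families that binds DNA and changes the transcription of target genes. Many of its subunits are immediate early genes, whose transcription starts within minutes of a stimulus without new protein synthesis, through factors that are already present in the cell, among them SRF with its ELK partners and CREB. The transcripts are short-lived. The same genes are known to be switched on by growth factors, by inflammatory signals, and by the handling of tissue when cells are dissociated and sorted.

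The genes fall into 3 roles. *Fos*, *Fosb* and *Fosl2* encode FOS proteins, which bind DNA only with a partner, and *Jun*, *Junb* and *Jund* encode the JUN partners. *Atf3* encodes a stress-induced member of the same bZIP superfamily, and *Egr1* encodes a zinc finger transcription factor induced with FOS. *Ier2* encodes a small immediate early nuclear protein, and *Dusp1* encodes the phosphatase MKP-1, which switches off the MAP kinases that induce the others. On GRCm38 with the GENCODE M21 annotation, *Fos* lies at chr12:85473890-85477273, *Fosb* at chr7:19302696-19310051, *Fosl2* at chr5:32135801-32157842, *Jun* at chr4:95049034-95052222 and *Junb* at chr8:84974484-84978718. *Jund* lies at chr8:70698949-70700616, *Atf3* at chr1:191170296-191218039, *Ier2* at chr8:84661331-84662852 and *Dusp1* at chr17:26505590-26562128. The position of *Egr1* is not reported here. Reads were counted over the exons of these genes, all of which are annotated as protein coding. Other annotated genes overlap *Jun* (*Junos*), *Junb* (*Prdx2*), *Jund* (*Gm11175*) and *Atf3* (*Gm24748*) on the opposite strand, and *Dusp1* overlaps 4 others. The strand setting of the counting is not given in the sources used here, so reads of these 5 genes could include reads of the overlapping ones, while *Fos*, *Fosb*, *Fosl2*, *Egr1* and *Ier2* have no such overlap.

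The promoters of 4 genes that moved together between samples are shown because they hold TGACG, the core of the cyclic AMP response element, which CREB and ATF proteins are known to bind. The 250 bases before the RefSeq start (GRCm38.p6) were available for 8 of the 10 genes, the exceptions being *Egr1* and *Ier2*. Each sequence is written 5′ to 3′ on the strand of the gene, and the capitals mark TGACG and its reverse complement CGTCA, which overlap in the palindrome TGACGTCA. The intervals are chr12:85473640-85473889 on the plus strand for *Fos*, and chr7:19310046-19310295, chr8:84978749-84978998 and chr17:26508473-26508722 on the minus strand for *Fosb*, *Junb* and *Dusp1*.
Fos: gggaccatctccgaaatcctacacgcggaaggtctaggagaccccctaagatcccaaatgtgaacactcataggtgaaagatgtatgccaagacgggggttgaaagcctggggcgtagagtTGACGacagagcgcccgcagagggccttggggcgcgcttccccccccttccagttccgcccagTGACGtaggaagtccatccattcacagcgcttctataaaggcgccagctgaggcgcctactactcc
Fosb: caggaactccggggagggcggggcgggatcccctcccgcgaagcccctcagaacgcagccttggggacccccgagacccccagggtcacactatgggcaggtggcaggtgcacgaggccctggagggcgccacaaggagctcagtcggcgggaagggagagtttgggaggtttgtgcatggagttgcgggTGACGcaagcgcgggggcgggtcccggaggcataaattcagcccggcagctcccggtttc
Junb: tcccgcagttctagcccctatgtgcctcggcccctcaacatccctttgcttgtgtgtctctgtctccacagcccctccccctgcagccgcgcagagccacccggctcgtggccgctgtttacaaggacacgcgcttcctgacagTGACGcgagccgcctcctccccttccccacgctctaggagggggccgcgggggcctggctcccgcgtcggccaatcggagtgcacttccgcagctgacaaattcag
Dusp1: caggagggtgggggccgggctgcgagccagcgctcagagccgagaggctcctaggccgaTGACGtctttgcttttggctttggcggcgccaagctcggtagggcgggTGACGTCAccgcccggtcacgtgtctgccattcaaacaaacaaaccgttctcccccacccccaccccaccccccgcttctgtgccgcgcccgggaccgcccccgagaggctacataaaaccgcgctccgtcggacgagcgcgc
The core was found at -129 and -66 from the start in *Fos*, at -60 in *Fosb*, at -106 in *Junb* and, on the minus strand, at -7 in *Atf3*. In *Dusp1* it was found at -191 and at -143, and the match at -143 belongs to the whole palindrome. No match to TGACG was found in these windows of *Jun*, *Jund* and *Fosl2*. *Jun* and *Jund* had the same highest libraries as the 4 genes shown, whereas *Atf3*, which holds the core, did not. A link between the core and the levels was not tested. Of 32851 mouse promoters of the same length, 17.8% held TGACG on either strand and 1.55% held TGACGTCA. Searched the same way, the NF-κB site was matched in *Fos* (-214), *Fosb* (-188) and *Fosl2* (-182), and in 7.25% of all promoters. The EGR site GCGNGGGCG was matched in *Fosb* (-50) and *Fosl2* (-79), and in 4.7% of all promoters. The AP-1 site TGANTCA and the CArG box of SRF were matched in none of the 8 windows, and in 6.75% and 1.47% of all promoters. The RefSeq starts used do not all coincide with the GENCODE gene starts. The *Jund* window lies upstream of the GENCODE gene and is not directly next to the counted exon. The windows of *Dusp1*, *Atf3* and *Fosl2* lie inside the GENCODE genes. These are matches of letters and were not measured as bound sites. Sites outside these 250 bases, sites with other letters, and any site of *Egr1* and *Ier2* could not be found by this search.

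Before the genes themselves, the libraries were checked. Between 17895973 and 21720972 reads per library were counted on genes, and 3 reads, the limit that a count of 0 allows, correspond to 0.125 to 0.178 CPM (read counts scaled to library size with the TMM factors). *Nfkbia*, the targeted gene, had 968, 1621 and 450 reads in WT1, WT2 and WT3, and 439, 574 and 243 reads in HET1, HET2 and HET3. KO1 and KO2 had 1 and 0 reads, so the KO labels held. HET2 had more reads than WT3, so these counts did not separate every HET library from WT. The 10 LT-HSC marker genes, among them *Kit*, *Slamf1* and *Procr*, summed to 288 CPM in WT3 and 220 CPM in HET3 and to between 577 and 1868 CPM in the other 6 libraries. Of these 10 markers, 9 had WT3 and HET3 as their lowest samples, and *Ly6a*, which encodes the SCA1 of the sort gate, was at 0 reads in HET3. Hepatocyte markers (7 genes) summed to 1457 CPM in WT3 and 731 CPM in HET3 and to at most 296 CPM elsewhere. WT3 and HET3 therefore stood apart from the other libraries, and results that rest on them are given with and without them. In such bulk samples, fewer cells of a type and less RNA per cell cannot be told apart.

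Per kb of exon, the highest of the 10 genes over the 8 libraries was *Ier2*, with a mean level of 123 CPM per kb, followed by *Fos* at 106 and *Dusp1* at 54.7 CPM per kb. *Jund*, *Junb* and *Jun* had mean levels of 31.6, 29.9 and 26.2 CPM per kb, *Egr1*, *Fosb* and *Atf3* of 5.002, 3.19 and 2.00 CPM per kb, and *Fosl2* of 0.378 CPM per kb. By the median over the libraries *Ier2* remained at 119 CPM per kb, while *Fos* was at 50.6 and *Atf3* at 0.238 CPM per kb. The medians of *Fosb*, *Egr1* and *Dusp1* were 1.44, 1.90 and 29.0 CPM per kb, so that for these 5 genes the median lay well below the mean, and the order of *Jund*, *Junb* and *Jun*, all within their spread, is not resolved. All 3 JUN genes were therefore present at similar per-length levels, whereas among the FOS genes *Fos* far exceeded *Fosb* and *Fosl2*.

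These genes differed widely between individual libraries, also within a genotype, and the differences between genotypes are given further below. HET1, HET2 and KO2 were the 3 highest libraries for 8 of the 10 genes, all but *Fosl2* and *Atf3*. Over all genes tested, 1.18% had these same 3 libraries on top, and 1.02% of the 8885 genes with a mean of at least 10 CPM did. HET2 was the single highest library for 8 of the 10 genes, against 7.34% of all genes. These libraries were picked from the values of the 10 genes themselves, so the shares describe the pattern and do not test it. The 3 libraries hold 2 genotypes, both sexes and both RNA labels, and each genotype with high libraries also had low ones, HET3 and KO1. The pattern was present for 8 genes with RLE scaling and for 7 with scaling to total counts.

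How many other genes shared this order depended on WT3 and HET3. Among the other 6 libraries alone, HET1, HET2 and KO2 lay above WT1, WT2 and KO1 for the same 8 of the 10 genes, but also for 19.6% of all genes, and they lay below them for 20.8% of all genes. LT-HSC markers were among the latter, with 9 of 10 below, and summed to 653, 577 and 1136 CPM in HET1, HET2 and KO2 against 1842, 1868 and 1746 CPM in WT1, WT2 and KO1. Erythroid (7 of 7) and hepatocyte markers (6 of 7) lay above in these 3 libraries. In WT3 and HET3, which had the lowest LT-HSC markers of all, the summed level of the 10 genes was nonetheless 412 and 458 CPM, beside 448, 509 and 556 CPM in WT1, WT2 and KO1 and 1252, 2155 and 1186 CPM in HET1, HET2 and KO2. The level of the 10 genes therefore did not follow that of the LT-HSC markers through all 8 libraries, and the part of the cell composition in it was not tested.

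**Figure D1:**
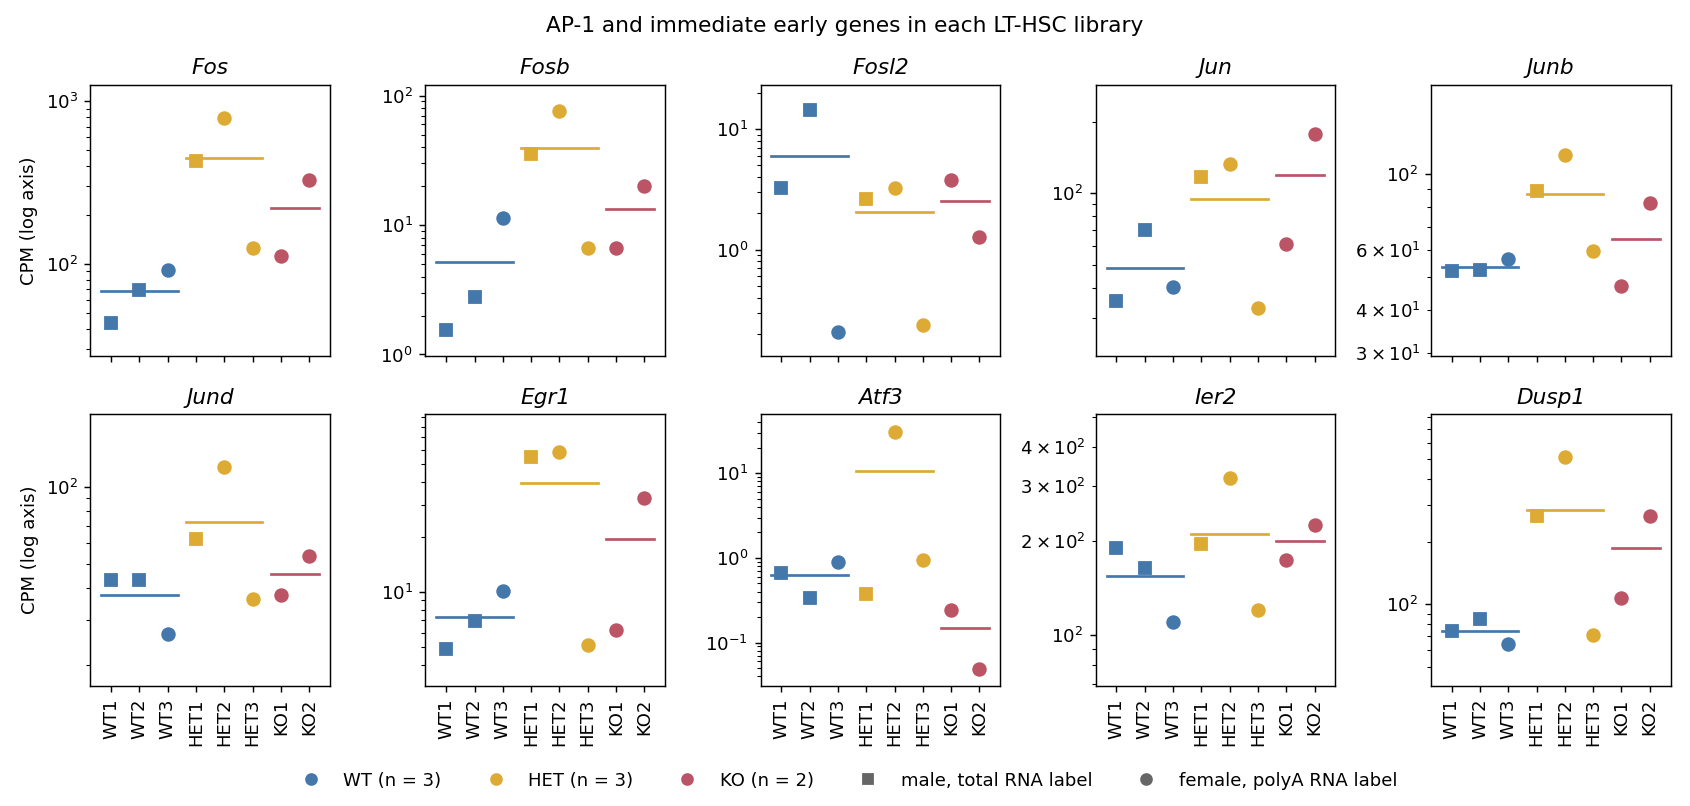
The level of each of the 10 genes in each library is plotted as CPM on a log axis with its own range, with squares for male libraries recorded as total RNA, circles for female libraries recorded as polyA RNA, and a horizontal line at the mean of each genotype. HET1, HET2 and KO2 are the 3 highest points for all genes but *Fosl2* and *Atf3*, and HET3 and KO1 lie below them near the WT points.

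Among the FOS genes, *Fos* was at 43.2, 69.7 and 92.0 CPM in WT1, WT2 and WT3, at 429.9, 789 and 125 CPM in HET1, HET2 and HET3, and at 113 and 327 CPM in KO1 and KO2. The 3 HET libraries lay above the 3 WT libraries, but HET2 was 6.29 times as high as HET3 and KO2 was 2.90 times as high as KO1. *Fosb*, whose protein can replace FOS in the dimer, was at 1.54, 2.76 and 11.3 CPM in WT, at 35.1, 75.5 and 6.70 CPM in HET and at 6.60 and 19.96 CPM in KO, in the order of the library numbers. It followed *Fos* closely, with a Pearson r of 0.96 over the 8 libraries on the log2 scale, although WT3 exceeded HET3 and the genotypes overlapped. *Fosl2*, which encodes FRA-2, was at 3.28, 14.54 and 0.208 CPM in WT, at 2.66, 3.23 and 0.237 CPM in HET and at 3.82 and 1.28 CPM in KO. It did not follow the other FOS genes (r = -0.03 with *Fos*), with its highest library being WT2. Only 4 reads each stood behind the values of WT3 and HET3, the libraries with the lowest LT-HSC markers, with exact 95% Poisson intervals of 0.0567 to 0.533 and 0.0646 to 0.607 CPM. Such intervals cover counting error only, since reads amplified by PCR are not independent molecules.

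Among the JUN genes, *Jun* was at 35.3, 70.5 and 40.5 CPM in WT, at 117, 133 and 33.1 CPM in HET and at 61.3 and 178 CPM in KO. It was the only gene of the 10 with KO2 as its highest library, and HET3 was its lowest. *Junb* was at 52.2, 52.3 and 56.2 CPM in WT, at 88.7, 113 and 59.6 CPM in HET and at 47.0 and 81.8 CPM in KO. It had the smallest range of the 10 genes, 2.41-fold from the lowest to the highest library, and again all HET libraries lay above all WT libraries. *Jund*, known as the most constitutively expressed JUN gene, was at 43.0, 43.0 and 26.6 CPM in WT, at 62.3, 119.8 and 36.2 CPM in HET and at 37.8 and 53.5 CPM in KO. WT and HET overlapped for *Jund*, because HET3 lay below WT1 and WT2.

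Among the other genes, *Egr1* was at 4.91, 6.98 and 10.1 CPM in WT, at 54.9, 58.4 and 5.16 CPM in HET and at 6.21 and 32.8 CPM in KO. The low and high libraries were widely separated, with an 11.3-fold difference within HET and a 5.28-fold difference within KO. *Dusp1* was at 74.4, 84.9 and 64.5 CPM in WT, at 266, 515 and 70.9 CPM in HET and at 107 and 266 CPM in KO. Its 3 WT libraries differed by 1.32-fold and its 3 HET libraries by 7.26-fold. *Ier2* was at 189, 164 and 110.1 CPM in WT, at 195, 318 and 120.1 CPM in HET and at 174 and 225 CPM in KO. All 3 genotypes overlapped for *Ier2*, and its range over the 8 libraries was 2.88-fold.

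*Atf3* differed from the rest. It had 14, 8 and 17 reads in WT, 7, 615 and 16 reads in HET and 5 and 1 reads in KO, or 31.0 CPM in HET2 and at most 0.949 CPM in the other 7 libraries. HET1, which was high for *Fos*, *Fosb*, *Egr1* and *Dusp1*, was at 0.372 CPM, and KO2 was at 0.0492 CPM, below the limit that 3 reads set. High *Atf3* was thus seen in 1 library only, which was also the highest for 7 of the other 9 genes.

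Within a genotype, the standard deviation of log2 CPM was 1.04 for *Fos*, 1.53 for *Fosb*, 1.497 for *Egr1*, 1.02 for *Dusp1* and 0.92 for *Jun*, against a median of 0.33 over the 8885 genes with a mean of at least 10 CPM. The value of *Fosb* exceeded that of 95.3% and the value of *Fos* that of 91.3% of those genes. *Jund* (0.62), *Ier2* (0.53) and *Junb* (0.39) were closer to that median. Over the 45 pairs of the 10 genes, the median Pearson r of log2 CPM across the 8 libraries was 0.715, with a range from -0.18 to 0.964, and within the 8 genes that shared their 3 highest libraries it was 0.862. Over WT and HET alone it was 0.753 for the 45 pairs. The 8 genes were set apart because they share their highest libraries, so a higher r between them was built into the choice. All genes share the same libraries, so these values are a description.

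By the likeness of their log2 CPM to the mean standardised profile of the 10 genes, the closest of 8877 other genes with a mean of at least 10 CPM were *Ppp1r15a* (r = 0.98), *Klf2* (0.97), *Setd1b* (0.94), *Gna13* (0.93) and *Tusc1* (0.92), each over 8 libraries. *Ppp1r15a*, which encodes the stress-induced phosphatase subunit GADD34, was at 57.4, 58.9 and 47.8 CPM in WT, at 124, 175 and 51.1 CPM in HET and at 73.1 and 101.3 CPM in KO. *Klf2*, which encodes a transcription factor known from quiescent lymphocytes and from endothelium under flow, was at 1.87, 9.98 and 4.32 CPM in WT, at 37.9, 267 and 4.39 CPM in HET and at 8.22 and 63.4 CPM in KO. Only 8 of the 8877 genes had r over 0.9, and the first 2 of them were themselves on the list of other immediate early genes.

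Other immediate early genes outside the 10 were examined from a list of 30, of which 29 were tested. HET1, HET2 and KO2 were the 3 highest libraries for 8 of the 29, *Egr2*, *Ier5*, *Klf2*, *Klf4*, *Klf6*, *Zfp36*, *Rhob* and *Ppp1r15a*, against 1.18% of all genes. HET2 was the highest for 14, against 7.34% of all genes. These counts include genes near the floor. *Egr2* was at 0 in 5 libraries and had at most 24 reads, and *Egr3*, highest in HET2, was at 0 in 6 and had at most 9 reads. *Klf6* was at 108 and 325 CPM in HET1 and HET2 and at 17.1 CPM in HET3, and *Nr4a1*, another gene induced by receptor signalling, was at 46.1 CPM in HET2 and at most 5.80 CPM elsewhere, both named after their values were seen. The other 21 genes had other libraries among their 3 highest. *Myc* was at 1413 CPM in WT3 and 1484 CPM in HET3, its highest libraries, and *Nfil3*, *Klf10* and *Zfp36l2* each had WT1 and WT2 among their 3 highest. Of 11 further AP-1 bZIP genes, such as *Batf*, *Maff*, *Jdp2* and *Atf4*, of 11 genes of MAP kinase feedback, such as *Dusp6*, *Dusp2*, *Dusp16* and *Spry4*, of 20 upstream kinases and factors, such as *Mapk3*, *Map2k1*, *Mrtfa* and *Mrtfb*, and of 7 tested AP-1 target genes, such as *Plaur*, *Ccnd1*, *Cd44* and *Hmox1*, none had these same 3 libraries on top, against 1.18% of all genes, so that a count of 0 in lists of this size sits near the background. Without WT3 and HET3, HET1, HET2 and KO2 lay above WT1, WT2 and KO1 for 3 of the 11 bZIP, 2 of the 11 feedback, 6 of the 20 upstream and 0 of the 7 target genes, and for 11 of the 29 other immediate early genes, against 19.6% of all genes. *Dusp6*, which encodes a phosphatase that acts on ERK, was at 45.9, 36.9 and 12.03 CPM in WT, at 52.8, 35.6 and 7.06 CPM in HET and at 45.7 and 53.2 CPM in KO. It was lowest in WT3 and HET3.

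**Figure D2:**
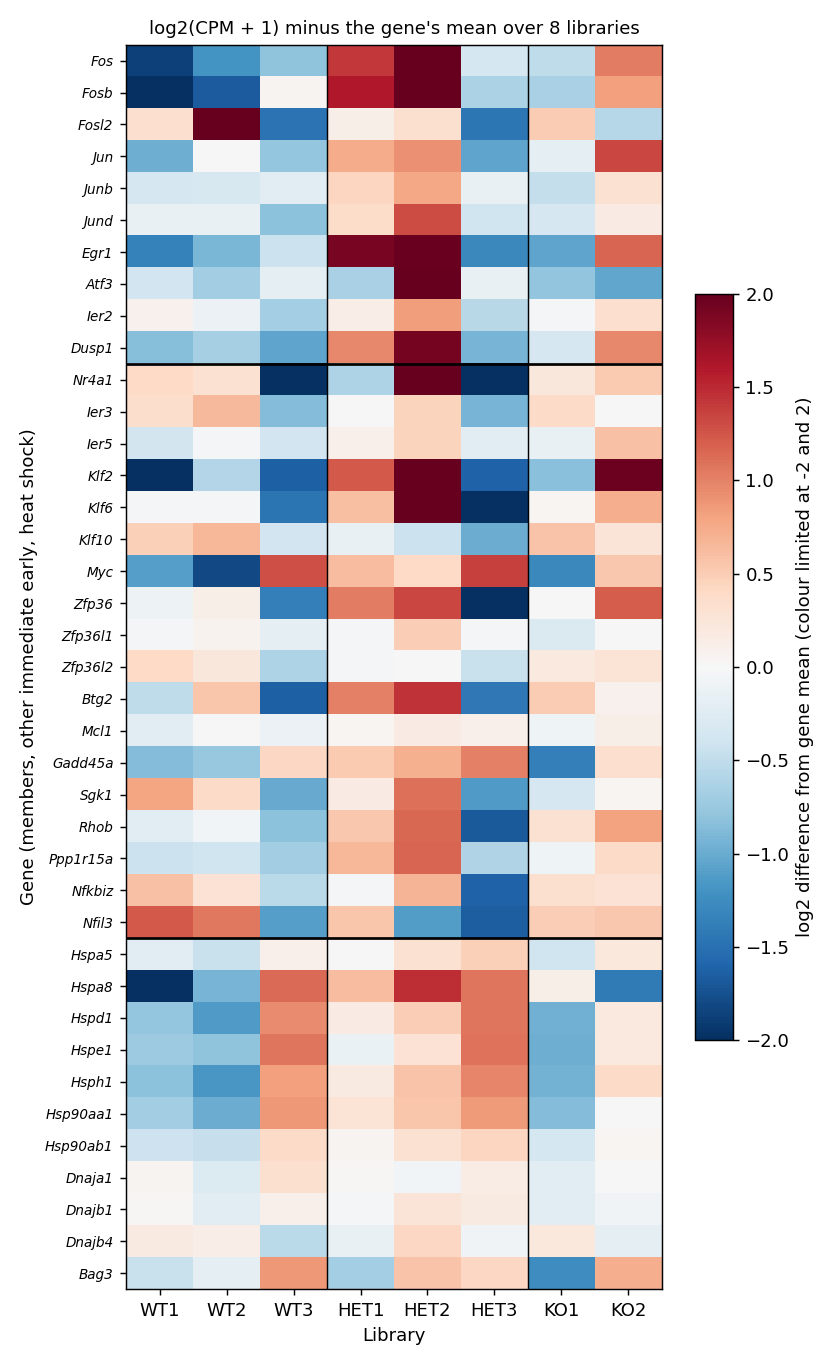
Colour gives log2(CPM + 1) of each gene in each library minus the gene's mean over the 8 libraries, for the 10 genes (top), other immediate early genes with a mean of at least 5 CPM (middle) and heat shock genes with a mean of at least 5 CPM (bottom). HET1, HET2 and KO2 are red for 8 of the 10 top genes, whereas the heat shock genes are red mainly in WT3, HET2 and HET3.

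Because immediate early genes respond to the handling of tissue, a list of 14 heat shock and dissociation stress genes was set beside them, of which 13 were tested. The summed level of the list was 3846, 3548 and 7669 CPM in WT1, WT2 and WT3, 5726, 7158 and 8072 CPM in HET1, HET2 and HET3, and 3943 and 5454 CPM in KO1 and KO2. The sum is weighted to the most abundant genes, with means over the libraries of 2682 CPM for *Hsp90ab1* and 737 CPM for *Hspa5*. *Hspa1a* and *Hspa1b*, with means of 0.595 and 2.69 CPM, hardly enter it. HET3 and WT3 were highest for heat shock, although the summed level of the 10 genes was low in both. None of the 13 genes had HET1, HET2 and KO2 as its 3 highest libraries, against 1.18% of all genes. In a list of this size, such a count sits near the background. Without WT3 and HET3 the result was different, since HET1, HET2 and KO2 then lay above WT1, WT2 and KO1 for 7 of the 13 heat shock genes, against 19.6% of all genes, and for their sum, and lay below them for none of the 13, against 20.8%. *Hspe1*, *Hsp90aa1*, *Hspd1* and *Hspa8*, which encode chaperones, each had HET2, HET3 and WT3 on top. They were named for a low unadjusted p in KO against WT and HET. With sex in the model that fit sets KO against these same 3 libraries, so the choice itself favours this order. *Hspa8*, which is also a chaperone of unstressed cells, was at 749 CPM in HET2, 409 CPM in HET1 and 99.9 CPM in KO2. No time, temperature or delay of the sort is recorded per sample, and the part of handling in the differences between libraries was not tested.

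Markers of another cell type also moved with part of the pattern. Erythroid markers (7 of 7 tested, none at 0 in any library) summed to 1432, 1102 and 2788 CPM in WT1, WT2 and WT3, to 14284, 5195 and 3053 CPM in HET1, HET2 and HET3, and to 689 and 2845 CPM in KO1 and KO2. HET1 and HET2 were highest, and for 2 of the 7 markers HET1, HET2 and KO2 were the 3 highest libraries. The globin genes made up from 46.6% of the sum in HET3 to 90.04% in HET1, with *Hbb-bs* at 5738 CPM in HET1, 1897 CPM in HET2, 743 CPM in KO2 and 147 CPM in KO1. *Klf1*, in contrast, was at 1227 CPM in HET3 and 1039.5 CPM in WT3, its highest libraries. The part of erythroid RNA in the levels of the AP-1 genes was not tested. Endothelial (4.86 to 147 CPM), megakaryocyte (23.3 to 1258 CPM), granulocyte-monocyte (138 to 973 CPM), macrophage (23.5 to 204 CPM), lymphoid (0 to 6.204 CPM) and mesenchymal (1.35 to 11.04 CPM) marker lists had no gene with these 3 libraries on top. Against 1.18% of all genes, a count of 0 in such short lists sits near the background. Without WT3 and HET3, the 3 libraries lay below WT1, WT2 and KO1 for 4 of 6 endothelial, 3 of 5 megakaryocyte and 1 of 6 granulocyte-monocyte markers, against 20.8% of all genes. They lay above them for no marker of these lists, against 19.6%. *Cd48*, the marker that the gate excludes, was at 45.8 to 89.1 CPM. The share of mitochondrial reads was highest in HET2 (2.05%) and KO2 (2.04%) and was 1.77% in HET1, beside 1.48% to 1.99% in the other 5 libraries, and its part was not tested.

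**Figure D3:**
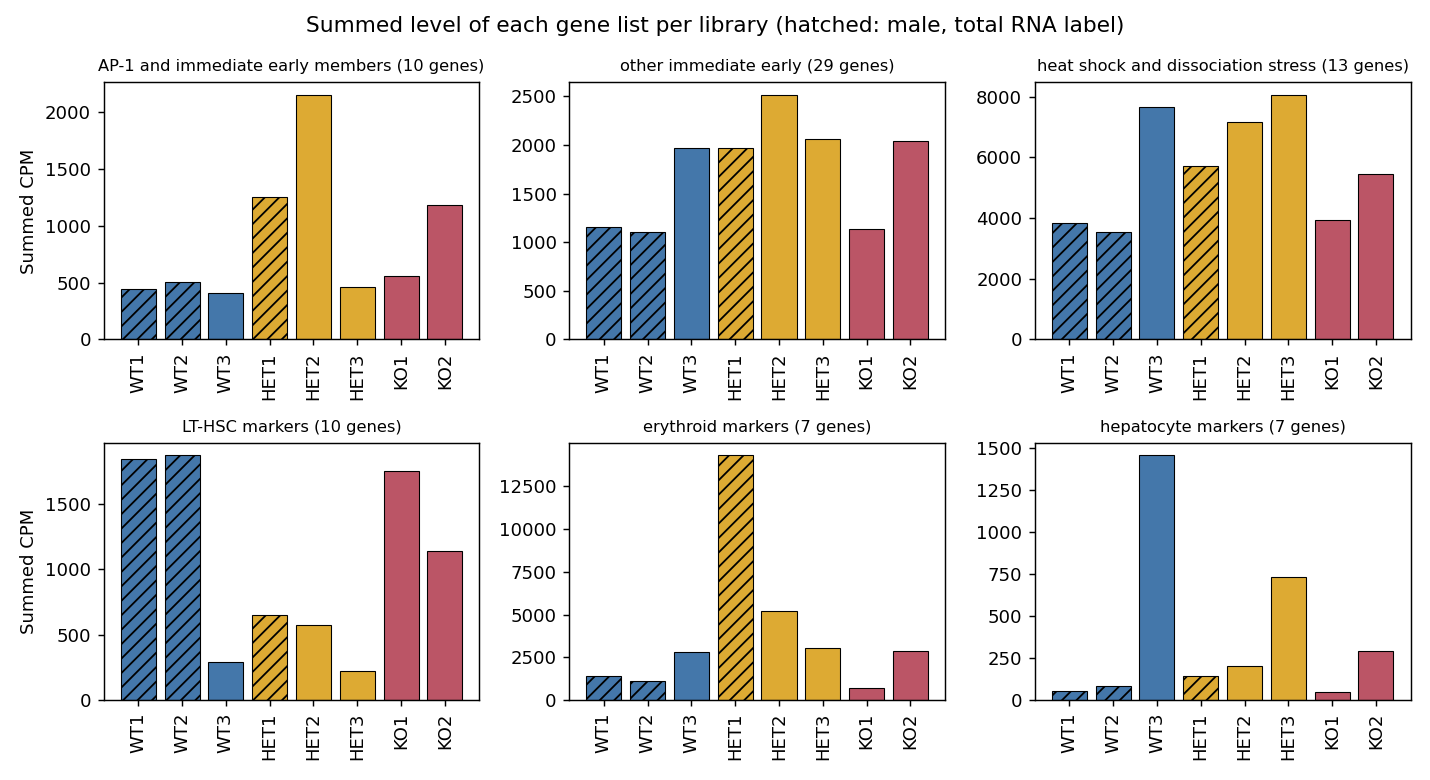
Bars give the summed CPM of each gene list per library on a linear axis from 0, coloured by genotype and hatched for male libraries recorded as total RNA. The 10 AP-1 and immediate early genes are highest in HET2, HET1 and KO2, the heat shock list in HET3, WT3 and HET2, LT-HSC markers in WT2, WT1 and KO1, and erythroid markers in HET1 and HET2.

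The comparison the study was built on is KO against WT and HET together, which asks what changes in LT-HSCs without IκBα. Since both KO libraries were female, the test with sex in the model sets them against the 3 female controls, WT3, HET2 and HET3, of which WT3 and HET3 stand apart, while the male controls add only to the estimate of the spread. None of the 10 genes was called in this edgeR quasi-likelihood test, at an adjusted p under 0.05 with a log2 fold change beyond 1 in either direction. Over all 20610 genes 0% were called by this rule, 25.2% had an unadjusted p under 0.05, and DESeq2 called 8.85% (0 of the 10 genes). By edgeR 3 of the 10 genes had a log2 fold change above 0, against 55.2% of all genes, and 1 of the 10, *Atf3*, had an unadjusted p under 0.05, in the lower direction, as did 9.48% of all genes. The log2 fold changes with their SE and adjusted p were -0.61 (SE 1.18, adjusted p = 0.769) for *Fos*, -1.23 (SE 1.45, 0.614) for *Fosb*, 1.05 (SE 1.24, 0.617) for *Fosl2*, 0.80 (SE 0.71, 0.497) for *Jun* and -0.25 (SE 0.40, 0.721) for *Junb*. For *Jund* the value was -0.42 (SE 0.58, adjusted p = 0.675), for *Egr1* -0.33 (SE 1.30, 0.898), for *Ier2* 0.13 (SE 0.42, 0.879) and for *Dusp1* -0.22 (SE 0.96, 0.910). With SEs of about 1 on the log2 scale for *Fos*, *Fosb*, *Egr1* and *Dusp1*, a change of a few-fold in either direction was not detectable for them in these samples.

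*Atf3* was the only one of the 10 genes for which both KO libraries lay beyond all 6 others, at 0.245 and 0.0492 CPM against 0.334 to 31.0 CPM. Of all genes 1.79% had both KO libraries below the 6 others. The fitted log2 fold change was -6.16 (SE 1.93, edgeR adjusted p = 0.152), and the exact two-sided permutation test over samples gave p = 0.0714, the smallest that 2 samples against 6 allow. The KO values rest on 5 and 1 reads, and the exact Poisson interval of KO1 (0.0794 to 0.571 CPM) overlapped that of WT2 (0.144 to 0.658 CPM). HET2 set the size of the fitted change, which was -2.59 without it, and with no sex term it was -5.22 (SE 2.59, edgeR adjusted p = 0.978). *Atf3* was called only where no genes were left out for low counts (edgeR adjusted p = 0.0307), a setting with 3.51% of all genes called, and DESeq2 gave no p for it.

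The sign of the other differences depended on which controls were used. Without sex in the model, which sets the 2 KO libraries against all 6 controls, none of the 10 genes was called and none had an unadjusted p under 0.05, against 0% and 2% of all genes, and 3 of the 10 were above 0, *Jun*, *Ier2* and *Dusp1*. *Fos* was then at -0.23 (SE 1.07) and *Jun* at 0.74 (SE 0.61) in log2 fold change. With the 3 WT libraries alone as reference and no sex term, 8 of the 10 were above 0 and 2 had an unadjusted p under 0.05, *Fos* (1.69, SE 0.53) and *Dusp1* (1.33, SE 0.41), against 0.97% of all genes. None was called in that setting, nor was any other gene (0%), and it compares female KO libraries with 2 male and 1 female WT libraries. With the 3 HET libraries alone and no sex term, 2 of the 10 were above 0, *Fosl2* (0.32) and *Jun* (0.34), 1 had an unadjusted p under 0.05, *Atf3*, against 13.6% of all genes, and none was called (0% of all genes). *Fos* was at -1.03 (SE 0.80) there. Both comparisons use the same 2 KO libraries. Without WT3 and HET3 and with no sex term, 9 of the 10 were below 0, all but *Jun*, while none was called and none had an unadjusted p under 0.05, against 0% and 1.6% of all genes. *Fos* was at -0.62 (SE 1.12, edgeR adjusted p = 1) in that setting. Within the female libraries, 2 KO against 3 controls, the exact permutation test gave p from 0.2, the smallest possible, for *Atf3* to 1 for *Fos*.

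HET against WT asks whether loss of 1 copy of the inhibitor gene goes with a difference. All 10 genes had a log2 fold change above 0 in HET, against 50.1% of all genes, and their median was 1.53 against 0.00 over all genes. None was called by edgeR, nor was any gene (0%). An unadjusted p under 0.05 was found for 5 of the 10, all higher in HET, against 1.8% of all genes in that direction. These were *Fos* (log2 fold change 2.62, SE 0.67), *Fosb* (2.93, SE 0.94), *Egr1* (2.43, SE 0.85), *Dusp1* (1.96, SE 0.70) and *Junb* (0.69, SE 0.26), each with an edgeR adjusted p of 0.932. All 3 HET libraries lay above all 3 WT libraries for *Fos* and *Junb*, against 4.2% of all genes, with an exact permutation p of 0.1, the smallest that 3 against 3 allow. Within both label classes, HET1 against WT1 and WT2 and then HET2 and HET3 against WT3, HET was higher for 5 of the 10 genes, *Fos*, *Junb*, *Jund*, *Ier2* and *Dusp1*, against 9.41% of all genes.

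HET3 was close to WT for these genes, and so the size of the difference rested on HET1 and HET2. For *Fos* HET3 exceeded the highest WT library by 125 against 92.0 CPM, and for *Junb* by 59.6 against 56.2 CPM. DESeq2 called *Fos* (log2 fold change 2.60, adjusted p = 0.0167) and none of the other 9, with 0.311% of all genes called. With no filter on low counts edgeR called *Fos*, *Fosb*, *Jun*, *Egr1* and *Dusp1*, with 0.407% of all genes called. Without WT3 and HET3, the 2 libraries low in LT-HSC markers, and with no sex term, HET1 and HET2 were set against WT1 and WT2. Here 6 of the 10 genes were called by edgeR, *Fos*, *Fosb*, *Jun*, *Jund*, *Egr1* and *Dusp1*, all higher in HET, with 10.9% of all genes called. All 10 had an unadjusted p under 0.05, against 32.9% of all genes, with *Fosl2* the only one below 0. *Fos* had a log2 fold change of 3.43 (SE 0.33) in that setting, where both WT libraries are male and 1 of the 2 HET libraries is female. In the main fit, with all 6 WT and HET libraries and the sex term, all 7 erythroid markers were also higher in HET with an unadjusted p under 0.05 by edgeR. Of all genes 1.8% were so in that fit. The median log2 fold change of the erythroid markers was 2.00, and their part in the difference of the AP-1 genes was not tested.

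**Figure D4:**
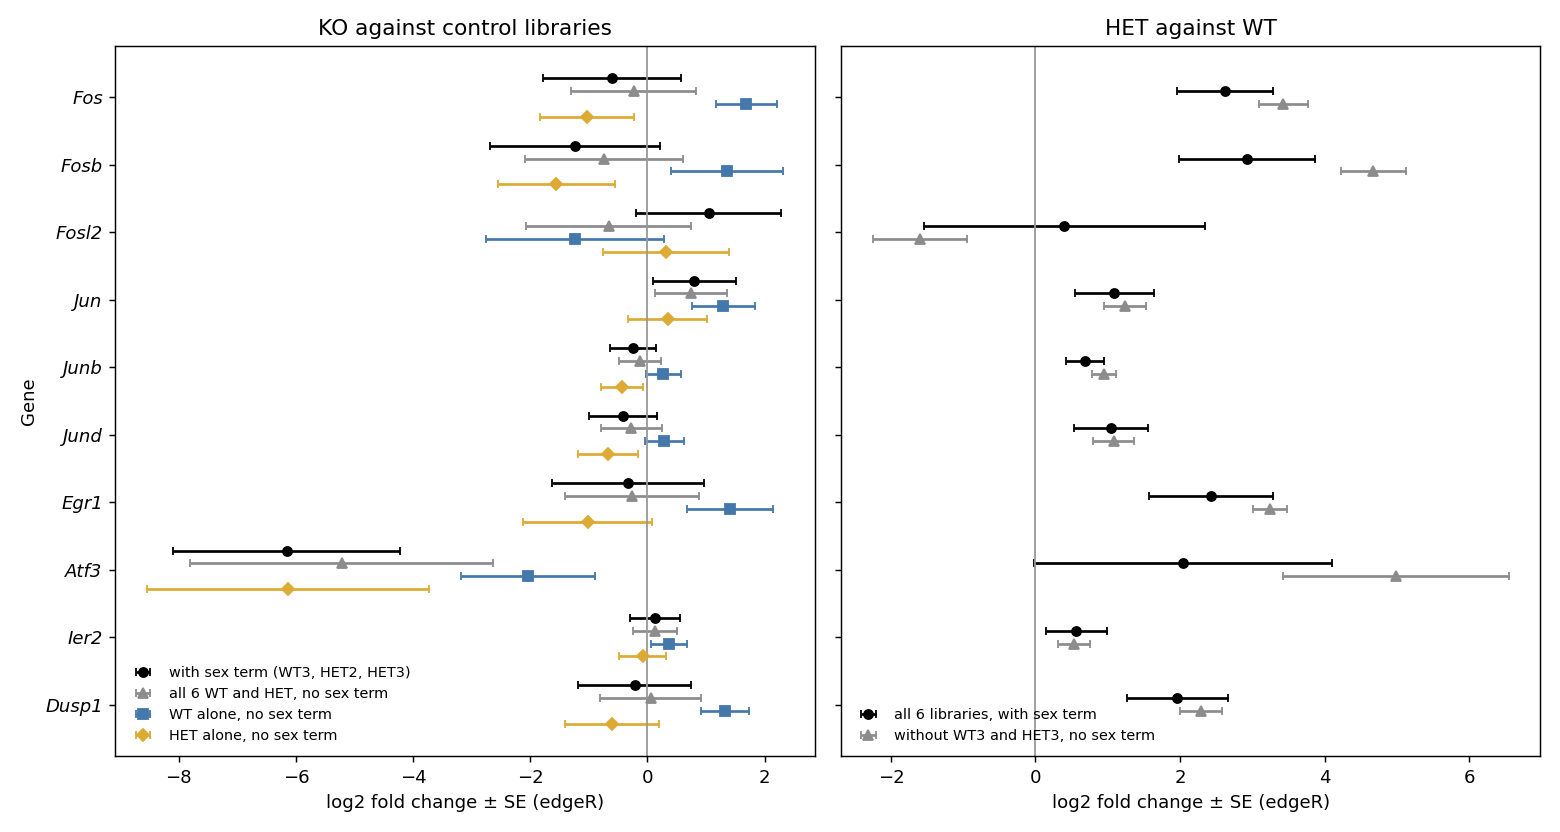
Points give the log2 fold change of each gene with its SE from edgeR, on the left for KO with the sex term (against the female controls) or with no sex term against all 6 WT and HET libraries, WT alone or HET alone, and on the right for HET against WT with all 6 libraries or without WT3 and HET3 and the sex term. The KO values of *Fos*, *Fosb*, *Junb*, *Jund*, *Egr1* and *Dusp1* lie above 0 against WT alone and below 0 against HET alone, and all 10 HET values lie above 0 with all 6 libraries.

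Male and female libraries, which also differ in RNA label, were compared within WT and HET. No gene of the 10 was called (0.0146% of all genes were), and none had an unadjusted p under 0.05, against 22.7% of all genes. The log2 fold changes of male against female ran from -3.09 (SE 1.99) for *Atf3* to 2.78 (SE 1.89) for *Fosl2*, and those of *Junb*, *Egr1* and *Dusp1* were -0.03, 0.02 and 0.08. The heat shock list differed from the 10 genes here, with 10 of its 13 genes lower in male libraries at an unadjusted p under 0.05, against the 22.7% of all genes in either direction. The female side holds WT3 and HET3, which stand apart and had the highest sums of this list, 7669 and 8072 CPM. Without them HET2 is the only female control, at 7158 CPM beside 3846, 3548 and 5726 CPM in WT1, WT2 and HET1.

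The pathway around the 10 genes was described from lists of names. In KO against WT and HET, with none called in any list, the further AP-1 bZIP genes had 6 of 11 above 0, the other immediate early genes 17 of 29, MAP kinase feedback genes 8 of 11, upstream kinases and factors 11 of 20 and AP-1 target genes 5 of 7. In the same order of lists, 3, 7, 1, 6 and 2 genes were higher with an unadjusted p under 0.05 by edgeR. Lower with such a p were 1, 0, 0, 3 and 0 genes, against 9.48% of all genes in that direction. Over all genes 55.2% were above 0 and 25.2% had an unadjusted p under 0.05 in either direction, and these differences rest on WT3, HET2 and HET3 as above. The heat shock list had 1 of 13 above 0, with a median log2 fold change of -0.64 against 0.13 over all genes. *Nfil3*, a bZIP repressor, had a log2 fold change of 2.28 (SE 0.41) and *Mapk3*, which encodes ERK1, of 1.16 (SE 0.29), each with an edgeR adjusted p of 0.148. *Nfil3* was at 14.3, 12.5 and 2.03 CPM in WT, at 8.56, 2.02 and 1.07 CPM in HET and at 8.12 and 8.51 CPM in KO. The KO libraries of *Nfil3* lay within the WT range, and WT3 and HET3 were among the lowest. *Mapk3*, *Mrtfa*, *Mrtfb* and *Batf* were likewise lowest in WT3 and HET3, whose low LT-HSC markers are given above, and the part of those libraries in the differences of these genes was not tested. These genes were named for a low p in this fit, a choice that favours genes set apart in WT3, HET2 and HET3.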

How the data were processed

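Sorted LT-HSCs of 8 embryos were profiled by bulk RNA-seq (3 WT, 3 HET, 2 KO). The reads were trimmed by the authors with Trim Galore 0.6.6 and aligned with STAR 2.7.8 to GRCm38, versions per the submitters' processing notes, and the authors deposited raw counts of uniquely mapped reads per Ensembl gene. Such counts lose reads shared between near-identical genes. A second deposited table holds log2 values, for which the authors ran DESeq2 1.38.3 with its variance-stabilizing transformation and corrected for sex, which was used only to look at the order of the libraries. In these log2 values 7 of the 10 genes had HET1, HET2 and KO2 as their highest libraries, *Ier2* being the exception among the 8. No value column was left unmapped to a sample.

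From the counts, genes with under 10 reads in total were left out (20610 of 55487 kept, 55141 identifiers with a symbol). TMM-scaled CPM was computed, and groups were compared in R 4.3.3 by edgeR 4.0.16 (quasi-likelihood F test after glmQLFit, legacy mode), with sex as covariate and Benjamini-Hochberg adjustment over all genes tested. As both KO samples are female, the fitted KO difference then rests on the female controls WT3, HET2 and HET3. The SE is the fold change divided by the square root of its F statistic. Calls required an adjusted p under 0.05 with a log2 fold change beyond 1 in either direction. Exact two-sided permutation tests over samples used log2 CPM with a prior count of 2. Depth was 17895973 to 21720972 reads per library. The alternatives were DESeq2 1.42.0, RLE normalization, no filter, at least 10 reads in every sample, the replicate number as a block, no sex covariate, female samples only, WT or HET alone as reference, and each sample left out. Leaving out WT3 and HET3, dropping the sex term with WT alone, HET alone or without WT3 and HET3, the order of libraries under other scalings, and the order among 6 libraries were added after the data were seen. HET1, HET2 and KO2 were likewise set apart after the data were seen. On simulated counts of 19785 genes, 200 of them set 2 log2 units up or down, edgeR for KO against WT and HET recovered 124 (62%) with 4 false calls and DESeq2 162 (81%) with 80. For HET against WT (18697 genes) edgeR recovered 102 (51%) with 5 false calls and DESeq2 167 (83.5%) with 102.

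Named genes are the 10 members, *Nfkbia*, from each list up to 4 genes with a mean of at least 5 CPM and the lowest unadjusted p in KO against WT and HET, and the 5 genes with a mean of at least 10 CPM most like the members' mean profile. Cell type markers and other genes named for their library order were taken from lists or chosen after their values were seen. The members and lists were chosen with earlier results of these data known. Replicate numbers are those of the labels. Samples with the same number deviated together only in part (r of deviations from the group mean -0.346 to 0.590 over 7 pairs), so that the numbers did not pair the samples.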

Additional observations from a re-analysis of the deposited data

Results flagged for a closer look

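Of the 10 genes examined over the 6 WT and HET libraries, 2 had a library far from the others by Dixon's criterion. At a rate of about 1 in 20, 10 such looks would give 0.5. That rate assumes normal values and separate looks, whereas CPM was used without a log and the genes share the same libraries. The 0.5 is therefore not a firm reference for the 2. *Fosl2* was at 14.54 CPM in WT2, with 348 reads, and the nearest library, WT1, was at 3.28 CPM, so that the gap made up 0.786 of the range, above the 95% critical value for 6 samples. *Atf3* was at 31.0 CPM in HET2, with 615 reads, and the nearest library, HET3, was at 0.949 CPM, so that the gap made up 0.980 of the range.

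For *Fosl2* the difference between HET and WT went in opposite directions in male and in female libraries. HET1 (2.66 CPM) lay below WT1 and WT2 (3.28 and 14.54 CPM), whereas HET2 and HET3 (3.23 and 0.237 CPM) lay above WT3 (0.208 CPM), with a mean difference of 1.52 CPM in the female libraries. The difference between the sexes was not tested, and HET3 and WT3 rest on 4 reads each.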

How the results depend on the processing

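For KO against WT and HET, where edgeR called 0 genes, 1825 were called by DESeq2, 1106 without the filter on low counts, 661 with WT alone as reference and sex in the model, where WT3 is the only female control, and between 0 and 730 with each library left out (730 without HET2), and the one member called was *Atf3* without the filter (1 of 10). For HET against WT, where edgeR called 0, the counts were 64 by DESeq2, 128 without the filter, 0 to 135 with each library left out (135 without HET2), 1964 without WT3 and HET3, and 2242 without WT3, HET3 and the sex term, with 1, 5, 0, 5 and 6 members called. With sex in the model, WT alone sets KO against WT3, HET alone against HET2 and HET3, and, without WT3 and HET3, the comparisons rest on single libraries, KO against HET2, HET1 against WT1 and WT2, and, for sex, HET1 against HET2. For male against female, where 3 genes were called, the counts were 1838 by DESeq2, 2121 without the filter, 0 with at least 10 reads in every sample, 1 to 2998 with each library left out (2998 without HET2) and 46 without WT3 and HET3. Members called were 2 without the filter (*Fosb*, *Atf3*), 0 to 1 with each library left out and 1 without WT3 and HET3 (*Atf3*). With the replicate block 0 genes were called in each comparison, against 3 without it for male and female, and unadjusted p-values under 0.05 fell on 589, 1073 and 297 genes for KO, HET and sex in place of 5196, 747 and 4669. The median r of the 45 pairs was 0.571 as Spearman's rho and 0.753 over WT and HET.

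Log2 fold changes that changed sign in KO against WT and HET were *Ier2* with the replicate block (-0.66), *Fosl2* (-0.66) and *Dusp1* (0.059) without sex, and with WT alone *Fos* (1.26), *Fosb* (0.24), *Junb* (0.20), *Jund* (0.79), *Egr1* (0.96) and *Dusp1* (1.54). With HET alone *Ier2* did (-0.13), and without WT3 and HET3 *Fosl2* (-0.37), *Jun* (-0.18) and *Ier2* (-0.70). With no sex term they were *Fos* (1.69), *Fosb* (1.36), *Fosl2* (-1.24), *Junb* (0.27), *Jund* (0.29), *Egr1* (1.42) and *Dusp1* (1.33) with WT alone, *Ier2* with HET alone (-0.081), and *Fosl2* (-1.22) and *Ier2* (-0.13) without WT3 and HET3. In HET against WT they were *Fosl2* (-0.13) and *Atf3* (-0.32) with the replicate block, *Fosl2* without sex (-1.55), and *Fosl2* (-1.74) and *Atf3* (-0.39) without WT3 and HET3, and *Fosl2* (-1.60) without these and the sex term. In male against female they were *Junb* with at least 10 reads in every sample (0.042), *Jun* (-0.18), *Jund* (-0.99), *Egr1* (-1.78), *Ier2* (-0.87) and *Dusp1* (-1.61) with the replicate block, *Jund* (-0.30), *Egr1* (-0.15) and *Dusp1* (-0.61) without genotype, and *Fosl2* (-0.28), *Jun* (-0.18), *Jund* (-0.94), *Egr1* (-0.090), *Ier2* (-0.70) and *Dusp1* (-0.96) without WT3 and HET3. The causes were not tested.

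With each library left out in turn, KO against WT and HET ran from -1.58 to 1.02 for *Fos*, -2.24 to 0.57 for *Fosb*, -0.17 to 1.71 for *Jun*, -0.70 to 0.16 for *Junb*, -0.80 to 0.55 for *Jund*, -1.98 to 1.36 for *Egr1*, -0.15 to 0.80 for *Ier2* and -1.02 to 1.47 for *Dusp1*, with the highest value of each without HET2. HET against WT ran from -1.74 to 3.03 for *Fosl2* and -0.40 to 4.17 for *Atf3*. Male against female ran from -0.78 to 0.27 for *Fos*, -0.21 to 0.18 for *Junb*, -0.33 to 0.73 for *Jund*, -0.82 to 0.79 for *Egr1*, -0.17 to 0.69 for *Ier2* and -0.25 to 0.96 for *Dusp1*. At this depth *Atf3* and *Fosl2* had 5 or fewer reads in some libraries, and the other 8 genes had 33 reads or more in every library.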
